A study of Homo sapiens with 70 samples.

Results

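Knock-down of C/EBPβ, the transcription factor encoded by *CEBPB*, was examined in oncogenic RAS-induced senescence (OIS). The samples were the 5 libraries labelled with shCEBPB and without shp53 (OIS-shCEBPB) and the 5 libraries with empty vectors (OIS-v-v), 10 of the 70 samples of the series, chosen by their labels and by no measured value. The study set knock-downs of chromatin and transcription factors against one another in OIS. All groups were IMR90 cells, human fetal lung fibroblasts, that carried pLNCX2 ER:HRAS G12V, a RAS oncogene fused to an oestrogen receptor domain that is switched on by 4-hydroxytamoxifen (4OHT), and all vectors were stably transduced by retrovirus. OIS-shCEBPB carried pSuper shCEBPB with pMSCV miR v, OIS-v-v carried the empty pSuper with pMSCV miR v, and both were given 100 nM 4OHT for 6 days. Grow-v-v (5 libraries) held the same empty vectors at day 0 without 4OHT. OIS-shp53 (5 libraries) carried the shp53 hairpin with empty pSuper, and OIS-shCEBPB-shp53 (5 libraries) carried both hairpins, each with 6 days of 4OHT. A single shCEBPB vector is named in the labels, and *HRAS* reads can come from the fusion gene as well as from the cells' own gene.

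C/EBPβ is a basic leucine zipper factor that binds DNA as a homodimer or as a heterodimer with other C/EBP proteins. In senescent fibroblasts it is known, together with NF-κB, as an activator of the inflammatory part of the senescence-associated secretory phenotype (SASP), the cytokines, chemokines, growth factors and proteases that senescent cells release. *CEBPB* has no intron, and its transcript yields longer activating and shorter repressing proteins that a count per gene does not separate.

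PolyA RNA was sequenced and the deposited values were read counts per gene. The 10 libraries held 15169741 to 22500697 counts, with no difference between the groups beyond their spread (exact two-sided permutation test, p = 0.31). The 50 highest genes took 17.2 to 17.5% of the counts in OIS-shCEBPB and 19 to 20.4% in OIS-v-v, without overlap (exact permutation p = 0.00794, the smallest possible). Levels are given as CPM, read counts relative to library size, with library sizes scaled by TMM, an edgeR factor that sets the bulk of genes equal between libraries. Fold changes come from edgeR's quasi-likelihood test with the replicate number as a block, and a gene passed at a Benjamini-Hochberg adjusted p under 0.05. Replicates 1 to 3 and replicates 4 and 5 of OIS-v-v and OIS-shCEBPB formed separate sets. Between libraries of either group, chi-square per gene was 2.07 to 8.08 within a set and 17.48 to 44.99 across the sets. In Grow-v-v, replicates 4 and 5 also stood apart from each other, at 24.03, and the part of this in comparisons with Grow-v-v was not tested. The labels name more than 1 library kit and sequencer without saying which library had which, and the effect of shCEBPB within each set is given for several genes and lists.

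The fibroblast markers summed to 13798 to 21193 CPM in OIS-v-v and 19634 to 20819 CPM in OIS-shCEBPB (exact permutation p = 0.444). The epithelial markers *CDH1*, *KRT5*, *SFTPC* and *NKX2-1* were at 0 counts in all 10 libraries, and the summed epithelial level, mostly *KRT18* and *KRT8*, was 77 to 93 against 78.2 to 91.4 CPM. Endothelial markers, mostly *TEK*, summed to 63.5 to 75.9 against 48.5 to 63.8 CPM (exact permutation p = 0.0159). Immune markers, mostly the lysosomal gene *CD68*, summed to 47.1 to 90.1 against 44.6 to 67.2 CPM (exact permutation p = 0.389). In bulk RNA, fewer cells of a type and less RNA per cell cannot be told apart.

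*CEBPB* (hg19, chr20:48807376-48809212) was depleted in every OIS-shCEBPB library. In OIS-v-v replicates 1 to 5 it stood at 296, 286, 329, 259 and 307 CPM, and in OIS-shCEBPB at 36.6, 40.1, 42.7, 31.4 and 26.6 CPM. The groups were far apart, and all 5 knock-down libraries also lay below the 5 Grow-v-v libraries, which held 179 ± 14.3 CPM (SD, n = 5). The fall was 8.4-fold (log2 fold change -3.07, SE 0.08, edgeR adjusted p = 1.75e-10), with -2.93 in replicates 1 to 3 and -3.29 in replicates 4 and 5 (edgeR adjusted p of the difference 0.0202), and from Grow-v-v to OIS-v-v *CEBPB* rose by 0.74 on the log2 scale (edgeR adjusted p = 4.53e-05). Of the 13396 genes tested, 4270 passed with shCEBPB (31.9%): 2261 were higher (16.9%) and 2009 lower (15.0%). The counts in each list below are to be read beside these shares. Scaled by total counts and not by TMM, the split was 3362 higher to 1289 lower, and without the replicate block 2290 genes passed.

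Among the other C/EBP genes, *CEBPD*, an activator that binds the same motif, rose. It stood at 109, 103, 117, 76.2 and 82.5 CPM in OIS-v-v and at 148, 152, 170, 185 and 170 CPM in OIS-shCEBPB. The groups did not overlap (log2 fold change 0.76, SE 0.10, edgeR adjusted p = 0.000109), and the effect was 0.51 in replicates 1 to 3 and 1.15 in replicates 4 and 5 (edgeR adjusted p of the difference 6.11e-06). Per kilobase of exon, mean levels in OIS-v-v were 161 CPM for *CEBPB* and 44.8 CPM for *CEBPD*, and in OIS-shCEBPB 19.3 and 75.7 CPM, so their order was opposite in the groups. *CEBPG*, which lacks an activation domain and pairs with other C/EBP proteins, fell by 0.46 (edgeR adjusted p = 0.000176), from 31.5 to 42.6 to 24.9 to 29.3 CPM. *CEBPZ*, which is listed by its symbol and is not taken here as a partner of C/EBPβ, fell by 0.26 (edgeR adjusted p = 0.00155, 0.103 without the block). *DDIT3*, the stress-induced member known as CHOP, had a log2 fold change of -0.19 that did not pass (edgeR adjusted p = 0.0718). *CEBPA* was at 0.226 CPM at most in OIS-v-v and *CEBPE* at 0 counts in all 10 libraries, and neither was tested.

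*HRAS* was lower with shCEBPB. It stood at 1319, 1287, 1303, 1047 and 1197 CPM in OIS-v-v and at 833, 821, 904, 802 and 796 CPM in OIS-shCEBPB. The groups did not overlap and the fall was 0.57 on the log2 scale (SE 0.05, edgeR adjusted p = 2.84e-06), beside a mean of 1530 CPM in Grow-v-v, where the fusion protein was not switched on. The part of the lower *HRAS* level in the results that follow was not tested.

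**Figure D1:**
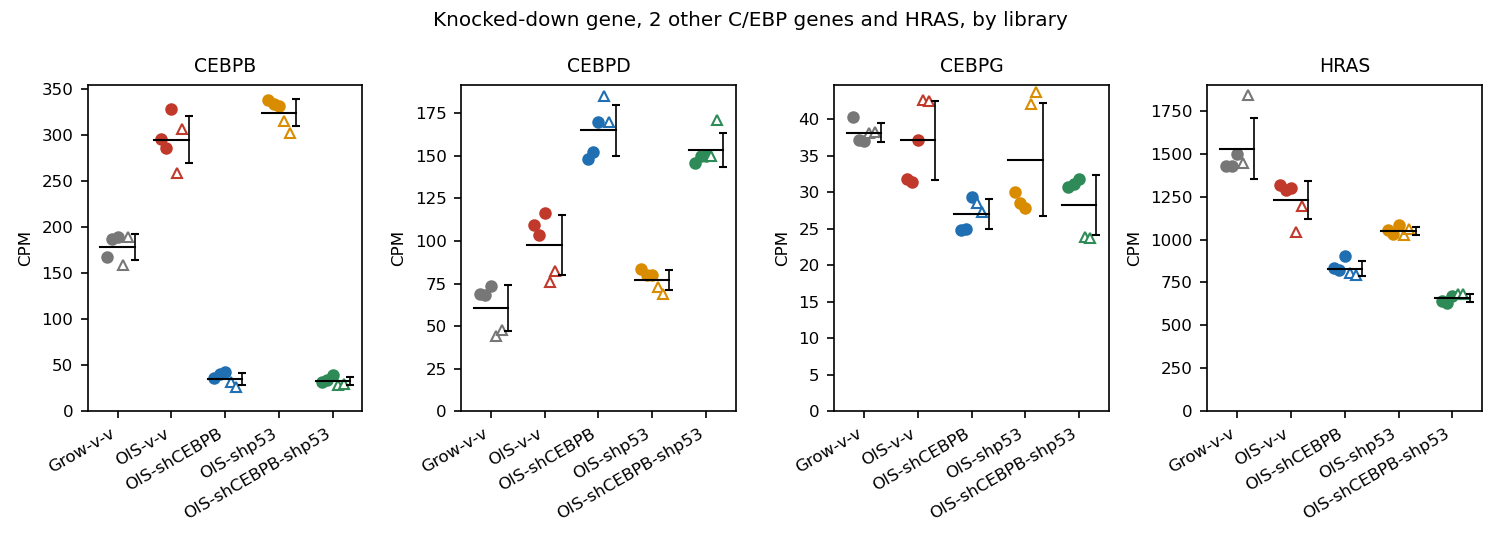
CPM (linear axes) of *CEBPB*, *CEBPD*, *CEBPG* and *HRAS* in each library of the 5 groups; filled circles are replicates 1 to 3, open triangles replicates 4 and 5, the line is the group mean and the bar 1 SD. *CEBPB* is at 26.6 to 42.7 CPM in OIS-shCEBPB against 259 to 329 CPM in OIS-v-v, where *CEBPD* is lower and *HRAS* higher than with shCEBPB.

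The inflammatory SASP fell in the main. Of 44 genes listed 35 had enough reads to be tested, of which 24 fell, 6 rose and 5 did not pass, with a median log2 fold change of -1.23 against 0.00 over all genes tested. The groups did not overlap for 27 of them, as for 15.0% of all genes tested. Replicates 1 to 3 alone gave 26 falls and 8 rises, and replicates 4 and 5 alone 24 and 8. From Grow-v-v to OIS-v-v, a comparison that shares the OIS-v-v libraries, 35 list members were also tested, not all of them the same genes. Of the interleukins 8 were tested there against 9 with shCEBPB, and of the CXC chemokines 9 against 8. Of the 35 tested there, 24 rose (24.8% of all genes tested did) and 6 fell (24.9% of all).

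Promoters of 6 named genes are shown, 5 that fell and *PTX3*, a secreted pattern recognition protein of the NF-κB target list, that rose. The 6 were picked from the named genes and do not stand for all of them. They are the 250 bases before the RefSeq gene start (GRCh38.p14, another build than that of the counts), 5′ to 3′ on the strand of the gene. Capitals mark matches on either strand to TTNNGCAA (C/EBP), GGNNTTTCC (NF-κB) or TGANTCA (AP-1), which do not overlap in these windows.
IL1B (chr2:112836780-112837029, minus strand): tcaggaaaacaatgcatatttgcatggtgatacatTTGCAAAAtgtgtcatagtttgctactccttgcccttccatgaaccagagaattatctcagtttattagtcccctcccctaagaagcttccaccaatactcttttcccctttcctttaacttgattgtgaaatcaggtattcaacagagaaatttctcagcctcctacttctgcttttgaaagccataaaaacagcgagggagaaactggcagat
IL6 (chr7:22726950-22727199, plus strand): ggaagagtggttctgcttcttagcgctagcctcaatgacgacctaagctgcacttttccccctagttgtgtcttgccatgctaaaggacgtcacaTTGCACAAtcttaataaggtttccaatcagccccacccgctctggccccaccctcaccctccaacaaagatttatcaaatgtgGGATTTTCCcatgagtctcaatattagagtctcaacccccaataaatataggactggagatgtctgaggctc
IL8 (chr4:73740319-73740568, plus strand): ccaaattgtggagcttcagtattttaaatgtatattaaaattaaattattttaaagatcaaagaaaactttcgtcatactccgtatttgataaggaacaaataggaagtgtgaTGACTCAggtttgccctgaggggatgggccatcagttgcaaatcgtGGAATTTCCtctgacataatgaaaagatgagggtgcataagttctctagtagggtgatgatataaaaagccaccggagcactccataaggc
CXCL2 (chr4:74099196-74099445, minus strand): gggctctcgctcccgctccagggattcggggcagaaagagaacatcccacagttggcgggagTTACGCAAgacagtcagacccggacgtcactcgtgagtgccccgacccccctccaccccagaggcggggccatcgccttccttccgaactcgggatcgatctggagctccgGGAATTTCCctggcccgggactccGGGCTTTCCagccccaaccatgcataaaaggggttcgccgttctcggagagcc
CCL20 (chr2:227813592-227813841, plus strand): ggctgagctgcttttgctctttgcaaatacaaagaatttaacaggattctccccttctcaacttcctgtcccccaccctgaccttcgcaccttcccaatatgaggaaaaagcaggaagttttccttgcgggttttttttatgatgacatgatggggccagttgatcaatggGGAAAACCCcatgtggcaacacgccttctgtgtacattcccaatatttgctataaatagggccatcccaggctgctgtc
PTX3 (chr3:157436600-157436849, plus strand): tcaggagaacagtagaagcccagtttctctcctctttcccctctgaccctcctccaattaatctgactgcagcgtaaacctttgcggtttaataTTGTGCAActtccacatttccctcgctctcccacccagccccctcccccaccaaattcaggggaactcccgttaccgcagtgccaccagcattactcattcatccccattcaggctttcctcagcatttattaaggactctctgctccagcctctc
With the base before the gene start as -1, a C/EBP match began at -215 in *IL1B*, -155 in *IL6*, -188 in *CXCL2* and -156 in *PTX3*. No such match was in the windows of *IL8* and *CCL20*. Both hold ttgcaaat, which is close to the C/EBP letters without matching them, so a window without a match can still hold a site. NF-κB matches began at -72 in *IL6*, -91 in *IL8*, -77 and -53 in *CXCL2* and -79 in *CCL20*, and an AP-1 match at -137 in *IL8*. Among the named genes not shown, *OSMR*, *IRAK4* and *SFRP2* held a C/EBP match in this window. Most did not, *CXCL1*, *CXCL3* and *IL24* among them, so such matches are more frequent in the promoters shown than in the others. A C/EBP match was in 9.13% of all 27305 promoters of this length, an NF-κB match in 5.48% and an AP-1 match in 6.6%. For the 10325 promoters of genes tested, from which the groups below come, the shares were 5.77%, 5.95% and 3.96%. Of the promoters of genes that fell, 5.4% held a C/EBP match, beside 7.05% for genes that rose and 5.52% for those that did not pass. NF-κB matches were in 6.5%, 6.16% and 5.77% of the same groups and AP-1 matches in 5.27%, 4.22% and 3.6%. Among genes that changed at least 2-fold, C/EBP, NF-κB and AP-1 matches were in 8.43%, 7.83% and 10.2% of the 166 that fell and in 10.4%, 5.18% and 7.25% of the 193 that rose.

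*IL1B*, the cytokine that feeds the SASP through the IL-1 receptor, stood at 6246, 5958, 6015, 8601 and 8710 CPM in OIS-v-v and at 744, 728, 803, 1109 and 1120 CPM in OIS-shCEBPB. The groups were wide apart, and the knock-down libraries overlapped those of Grow-v-v (569 to 832 CPM). The fall was 7.94-fold (log2 fold change -2.99, SE 0.05, edgeR adjusted p = 1.22e-12), with -3.01 in replicates 1 to 3 and -2.97 in replicates 4 and 5. *IL1A*, which acts on the same receptor, stood at 343, 322, 326, 138 and 130 CPM in OIS-v-v and 198, 188, 188, 232 and 222 CPM in OIS-shCEBPB. It was lower with shCEBPB in replicates 1 to 3 (log2 fold change -0.79) and higher in replicates 4 and 5 (0.75). This difference between the sets passed the edgeR test (adjusted p = 2.14e-13), as it did for 10.5% of all genes, and over all 10 libraries *IL1A* had -0.19 (adjusted p = 0.576).

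*IL6*, a cytokine that signals through gp130, stood at 1096, 1004, 1042, 1624 and 1480 CPM in OIS-v-v and at 686, 664, 725, 1029 and 1016 CPM in OIS-shCEBPB. The pooled ranges overlapped, since replicates 4 and 5 ran higher in both groups, while within each set the knock-down libraries were the lower ones. The fall was 0.61 (SE 0.04, edgeR adjusted p = 6.2e-07), with -0.61 and -0.61 in the sets. *LIF* and *IL11*, which use the same receptor chain, fell by 1.70 and 1.22 (edgeR adjusted p = 1.02e-09 and 2.27e-09). *IL24*, of the IL-10 family, went from 46.3, 40.6, 42.2, 34.4 and 38.9 CPM to 3.95, 3.53, 3.18, 2.29 and 2.44 CPM. All knock-down libraries were below those of Grow-v-v (11.7 to 47.9 CPM), and the fall was 13.2-fold (log2 fold change -3.73, SE 0.09, edgeR adjusted p = 4.25e-11). *IL15*, a lymphocyte growth factor, rose by 0.91 (edgeR adjusted p = 0.00196) from 0.931 to 1.47 to 1.91 to 2.67 CPM.

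**Figure D2:**
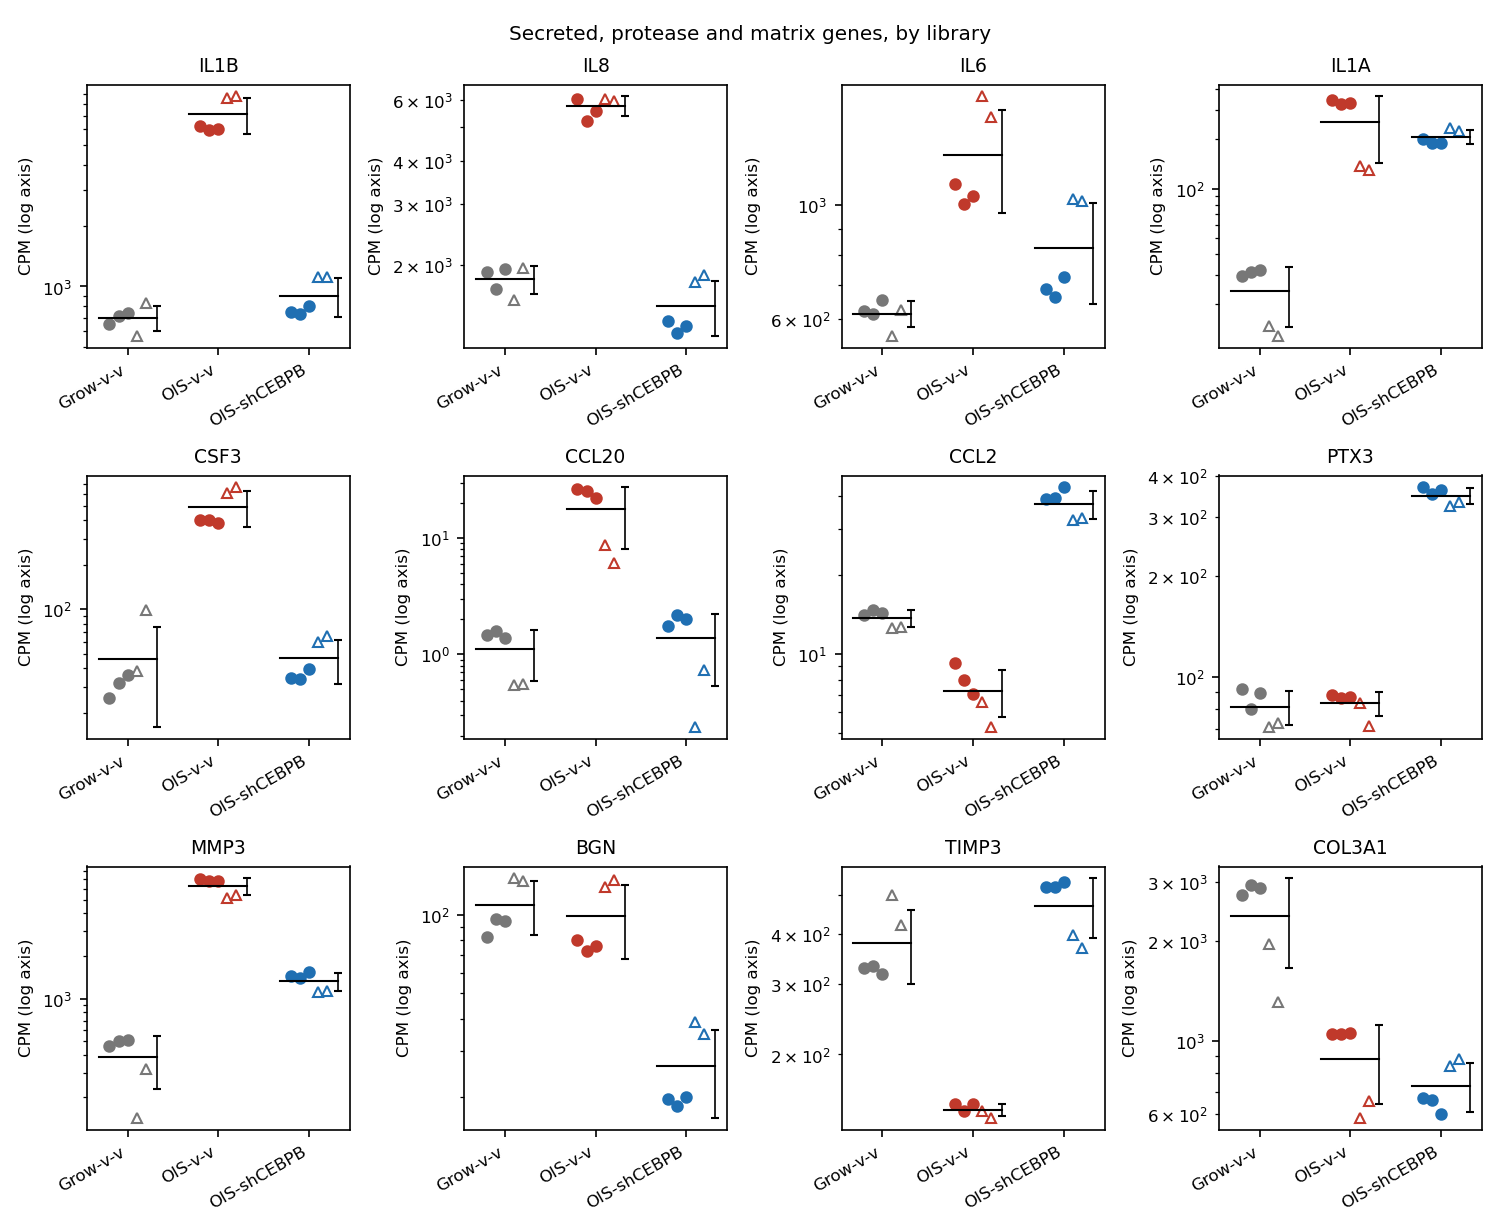
CPM (log axes, each with its own range) of 12 genes in each library of Grow-v-v, OIS-v-v and OIS-shCEBPB; filled circles are replicates 1 to 3, open triangles replicates 4 and 5, the line is the group mean and the bar 1 SD. *IL1B*, *IL8*, *CSF3*, *CCL20*, *MMP3* and *BGN* are lower in every OIS-shCEBPB library than in every OIS-v-v library, *CCL2*, *PTX3* and *TIMP3* are higher, and *IL1A* and *COL3A1* go opposite ways in the sets.

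The CXC chemokines that recruit neutrophils fell. *IL8* (CXCL8) stood at 6051, 5212, 5586, 6065 and 5971 CPM in OIS-v-v and at 1371, 1267, 1331, 1778 and 1867 CPM in OIS-shCEBPB. The groups did not overlap, and the knock-down libraries overlapped those of Grow-v-v (mean 1818 CPM). The fall was 3.85-fold (log2 fold change -1.95, SE 0.07, edgeR adjusted p = 1.28e-09). *CXCL5* fell by 2.57, *CXCL2* by 1.83, *CXCL3* by 1.69, *CXCL1* by 1.57 and *CXCL6* by 0.69, each with no overlap between the groups (edgeR adjusted p 3.23e-10 to 0.000454). *CXCL1*, *CXCL2* and *CXCL3* are near-identical copies, so that reads matching more than 1 of them are uncertain. Of the interferon-induced ligands of CXCR3, *CXCL10* had 0.20 (edgeR adjusted p = 0.184) and *CXCL11* rose by 2.98 (SE 0.20, edgeR adjusted p = 3.48e-07). *CXCL11* went from 0.339, 0.65, 0.64, 0.865 and 0.601 CPM to 5.5, 4.63, 5.01, 5.01 and 4.65 CPM, with no overlap but 16 counts at most in any OIS-v-v library.

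The CC chemokines went both ways. *CCL20*, the ligand of CCR6, fell from 26.4, 25.3, 21.9, 8.7 and 6.13 CPM to 1.75, 2.2, 2, 0.238 and 0.738 CPM (log2 fold change -3.67, SE 0.16, edgeR adjusted p = 7.38e-09). *CCL2*, the monocyte chemokine MCP-1, rose from 9.26, 7.97, 7.04, 6.59 and 5.29 CPM to 38.9, 39.3, 43.1, 32.4 and 32.9 CPM, above every Grow-v-v library (12.6 to 14.7 CPM). The rise was 5.15-fold (log2 fold change 2.37, SE 0.09, edgeR adjusted p = 1.8e-09). *CCL3* went from 46.6, 41.2, 43, 4.16 and 4.63 CPM to 15.1, 12.6, 14.7, 1.34 and 0.624 CPM, so that the sets were far apart in both groups. It fell by 1.69 (edgeR adjusted p = 2.32e-07, 0.207 without the block), and 838 of its 1312 exonic bases are shared with another annotated gene.

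The colony stimulating factors gave a fall, a rise and no pooled call. *CSF3* (G-CSF) stood at 401, 399, 385, 609 and 664 CPM in OIS-v-v and at 34.4, 33.8, 39.5, 60.2 and 66.1 CPM in OIS-shCEBPB, a 10.7-fold fall with no overlap (log2 fold change -3.41, SE 0.05, edgeR adjusted p = 1.22e-12). *CSF1* (M-CSF) rose 2.8-fold, from 16.4, 17.6, 17, 15.7 and 13.7 CPM to 46.5, 48.6, 45.2, 43.7 and 42.3 CPM (log2 fold change 1.49, SE 0.06, edgeR adjusted p = 2.31e-09), a range that overlapped Grow-v-v. *CSF2* (GM-CSF) had -0.62 in replicates 1 to 3 and 0.27 in replicates 4 and 5 (edgeR adjusted p of the difference 2.01e-09), and -0.26 over all 10 libraries (adjusted p = 0.164).

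Of 10 growth factors tested 7 fell and 2 rose. The EGF receptor ligands *AREG* and *EREG* fell by 2.32 and 1.86, and *BMP2*, *FGF2*, *NRG1*, *INHBA* and *VEGFA* by 1.41, 1.23, 1.23, 0.71 and 0.64 (edgeR adjusted p 2.31e-09 to 5.71e-06). *HBEGF*, another EGF receptor ligand, rose by 0.65 and *HGF*, the ligand of MET, by 1.03 (edgeR adjusted p = 1.85e-06 and 4.71e-07). *PTGS2* (COX-2), which starts prostaglandin synthesis, went from 909, 883, 855, 917 and 797 CPM to 102, 99.2, 81.1, 117 and 134 CPM. That 8.31-fold fall (log2 fold change -3.06, SE 0.09, edgeR adjusted p = 5.42e-10) left a range that overlapped Grow-v-v, whose mean was 129 CPM. *PTGES*, the prostaglandin E synthase, was at 0.865 to 2.07 CPM in OIS-v-v and had 4 counts at most in any knock-down library.

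**Figure D3:**
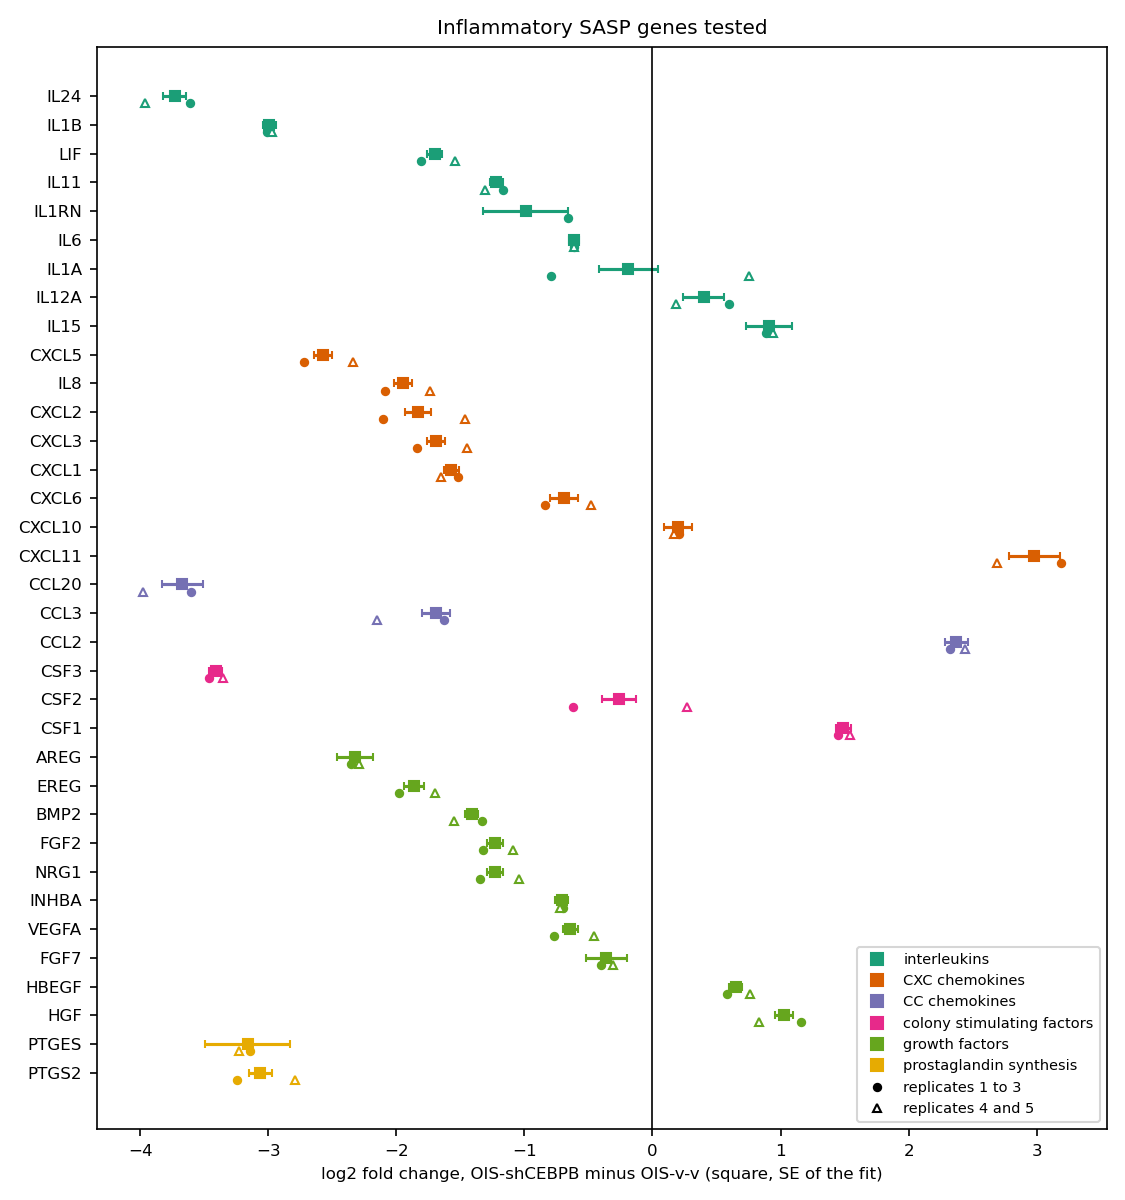
Log2 fold change of OIS-shCEBPB minus OIS-v-v for the 35 tested genes of the inflammatory SASP list, coloured by role; squares with bars are the fit of all 10 libraries with its SE, circles replicates 1 to 3 alone and open triangles replicates 4 and 5 alone. *IL24*, *CCL20* and *CSF3* lie at the low end and *CXCL11*, *CCL2* and *CSF1* at the high end, and the sets are on opposite sides of 0 for *IL1A* and *CSF2*.

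Receptors and transducers of IL-1 and IL-6 had a median log2 fold change of -0.15. Of 16 tested 8 fell and 2 rose (6 and 1 without the block), beside 15.0% and 16.9% of all genes tested. The effect was higher in replicates 4 and 5 for 2 and lower for 3 by the edgeR test of the difference. *IL6R*, which binds IL-6, fell by 1.35 and *IL1RAP*, the accessory chain of the IL-1 receptor, by 1.05 (edgeR adjusted p = 3.79e-06 and 7.98e-07). The oncostatin M receptor *OSMR* fell by 0.84 and *SOCS3*, a feedback inhibitor of STAT3 signalling, by 0.78, each without overlap (edgeR adjusted p = 5.66e-08 and 5.15e-08). *IRAK4*, a kinase of the IL-1 pathway, rose by 0.38 and the adaptor *MYD88* by 0.16 (edgeR adjusted p = 0.00425 and 0.039, the latter 0.183 without the block and 0.118 to 0.166 without replicate 1, 2 or 3). *IL6ST* (gp130) and *STAT3* had -0.04 and 0.05 and did not pass, with 0.13 and -0.31 in the sets for *IL6ST* and -0.06 and 0.20 for *STAT3* (edgeR adjusted p of the differences 0.000736 and 0.0207).

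Of the NF-κB subunits *RELB* alone passed, with 0.18 (edgeR adjusted p = 0.0299, 0.0996 without the block), and *RELA* and *NFKB1* had -0.05 and -0.07. Of 8 inhibitors 4 fell and 2 rose, among them *TNFAIP3* (A20), which fell by 0.64, and *TNIP1*, which fell by 0.59 (edgeR adjusted p = 4.14e-05 and 3.64e-06). In replicates 1 to 3 alone 5 inhibitors fell and in replicates 4 and 5 alone 2, with 2 rises in each. Of 11 targets 6 fell and 2 rose. The median of the targets was -0.56 in replicates 1 to 3 and 0.07 in replicates 4 and 5, where 12 were tested. For 6 of the 11 the effect was higher in replicates 4 and 5 by the edgeR test of the difference and for 0 lower. Over all genes 10.5% differed either way. *BCL2A1*, an anti-apoptotic BCL2 relative, went from 28.5, 26.4, 29.7, 39 and 36 CPM to 3.82, 4.82, 5.27, 10.1 and 10.8 CPM (log2 fold change -2.25, SE 0.13, edgeR adjusted p = 1.11e-07). *TNFAIP6* fell by 1.30 and the mitochondrial superoxide dismutase *SOD2* by 1.01 (edgeR adjusted p = 0.000171 and 3.68e-06). *PTX3*, whose promoter is shown above, stood at 88.5, 86.4, 87.2, 83.6 and 71.5 CPM in OIS-v-v and at 369, 353, 364, 324 and 333 CPM in OIS-shCEBPB. No library of the groups overlapped, and the rise was 4.16-fold (log2 fold change 2.06, SE 0.05, edgeR adjusted p = 4.25e-11). *BIRC3* (cIAP2) rose by 1.54 (edgeR adjusted p = 1.66e-05), with 1.15 and 2.13 in the sets. The adhesion molecule *ICAM1* fell by 0.94 (edgeR adjusted p = 0.000953), with -1.38 in replicates 1 to 3 and -0.27 in replicates 4 and 5 (adjusted p of the difference 9.85e-11).

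Of acute phase and complement genes, which C/EBP factors are known to activate in liver, 8 of 17 members were tested. Of these 5 fell and 1 rose (3 and 1 without the block). The effect was higher in replicates 4 and 5 for 4 and lower for 2 by the edgeR test of the difference. *C3*, the central complement protein, stood at 123, 128, 119, 36.6 and 37.2 CPM in OIS-v-v and at 49.8, 49.4, 46.6, 11.7 and 9.36 CPM in OIS-shCEBPB. The pooled ranges overlapped because replicates 4 and 5 were lower in both groups. The fall was 1.49 (SE 0.08, edgeR adjusted p = 8.22e-08, 0.0905 without the block), with -1.35 and -1.82 in the sets. *SERPINA1*, an elastase inhibitor, fell 4-fold and the complement protease *C1S* 1.88-fold (edgeR adjusted p = 8.45e-05 and 1.41e-06).

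Of 21 matrix proteases and inhibitors tested 11 fell and 6 rose (6 and 4 without the block). *MMP3* (stromelysin 1) stood at 6978, 6769, 6760, 5169 and 5419 CPM in OIS-v-v and at 1457, 1392, 1532, 1120 and 1128 CPM in OIS-shCEBPB. The groups did not overlap, and all knock-down libraries stayed above those of Grow-v-v (mean 386 CPM). The fall was 4.71-fold (log2 fold change -2.24, SE 0.05, edgeR adjusted p = 1.78e-11). *MMP1* (interstitial collagenase) went from 17933, 16734, 17593, 17928 and 18404 CPM to 8070, 7774, 8185, 8636 and 8719 CPM (log2 fold change -1.10, SE 0.04, edgeR adjusted p = 3.55e-09). *MMP10* and *MMP7* fell by 2.11 and 2.09, *MMP11* rose by 1.34 and the membrane protease *MMP14* had -0.05 (edgeR adjusted p = 5.93e-09, 4.01e-05, 6.53e-07 and 0.436). *TIMP3*, an inhibitor of metalloproteinases that binds to the matrix, rose from 139 to 150 to 370 to 539 CPM (log2 fold change 1.67, SE 0.07, edgeR adjusted p = 7.76e-09), whereas the soluble *TIMP1* fell by 1.26 (edgeR adjusted p = 1.75e-07). *SERPINB2* (PAI-2), an inhibitor of plasminogen activators, fell by 1.65 (edgeR adjusted p = 4.2e-09). In replicates 1 to 3 and replicates 4 and 5, *TIMP3* had 1.83 and 1.43, *TIMP1* -1.44 and -1.01, and *SERPINB2* -1.53 and -1.84, and each of these differences passed (edgeR adjusted p 9.4e-05 to 0.00174).

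The fibroblast matrix genes went in both directions, and the sets differed in many. Of 40 tested 17 rose and 10 fell (median 0.06). The effect was higher in replicates 4 and 5 than in replicates 1 to 3 for 24 of them by the edgeR test of the difference and lower for 2. Replicates 1 to 3 alone gave 17 rises and 20 falls, replicates 4 and 5 alone 20 and 7, and the fit without the block 12 and 4. *COL3A1*, a fibrillar collagen, stood at 1043, 1044, 1057, 585 and 658 CPM in OIS-v-v and at 672, 664, 600, 837 and 883 CPM in OIS-shCEBPB. It was lower with shCEBPB in replicates 1 to 3 (-0.71) and higher in replicates 4 and 5 (0.46), and *COL1A1* had -0.30 and 0.49. Neither passed over all 10 libraries (-0.24 and 0.02), while *COL1A2* rose by 0.71 (edgeR adjusted p = 0.00169). *COL8A1*, a short-chain collagen, fell by 2.04 (edgeR adjusted p = 1.99e-07).

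Of the small leucine-rich proteoglycans, *BGN* (biglycan) went from 79.9, 72.6, 76.3, 128 and 137 CPM to 19.6, 18.4, 20, 38.8 and 35.1 CPM (log2 fold change -1.92, SE 0.05, edgeR adjusted p = 1.62e-10). *LUM* (lumican) fell 2.82-fold and *DCN* (decorin) 1.96-fold (edgeR adjusted p = 1.71e-07 and 9.91e-07, the latter 0.102 without the block). Of 12 genes of elastic fibres and crosslinking 8 rose and 1 fell. *ELN* (elastin) rose from 13, 12.5, 13.6, 7.24 and 7.69 CPM to 21.3, 22.7, 28.5, 41.7 and 37.5 CPM (log2 fold change 1.46, SE 0.22, edgeR adjusted p = 0.000331), below every Grow-v-v library (mean 93.9 CPM). *FBN2* (fibrillin 2) rose by 0.49 (edgeR adjusted p = 8.64e-06) and *FBLN2* (fibulin 2) had 0.48 (edgeR adjusted p = 0.103). *POSTN* (periostin) rose by 1.35, *WISP1* by 1.27 and *CTGF* by 0.23 (edgeR adjusted p = 2.31e-09, 0.000294 and 0.0185, the last 0.17 without the block and 0.0688 to 0.0915 without replicate 1, 2 or 3).

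Of 9 contractile genes 6 rose and 0 fell (3 and 0 without the block). *ACTA2*, smooth muscle actin, stood at 94.1, 92.1, 93.7, 60.6 and 51.2 CPM in OIS-v-v and at 160, 149, 151, 142 and 128 CPM in OIS-shCEBPB, without overlap and below the Grow-v-v mean of 590 CPM. It rose by 0.93 (SE 0.09, edgeR adjusted p = 6.61e-06), *TPM1* by 0.52 (adjusted p = 7.06e-06) and *TAGLN* by 0.55 (adjusted p = 0.000103, 0.217 without the block). Of 17 TGF-β and Notch genes 7 fell and 3 rose (4 and 2 without the block), beside 15.0% and 16.9% of all genes tested. *NOTCH1* fell by 0.97 and its target *HEY1* by 1.35, while the ligand *JAG1* rose by 0.70 (edgeR adjusted p = 2.22e-08, 5.35e-07 and 0.00144). *TGFB2* fell by 0.86 (edgeR adjusted p = 7.44e-06, 0.0502 without the block).

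**Figure D4:**
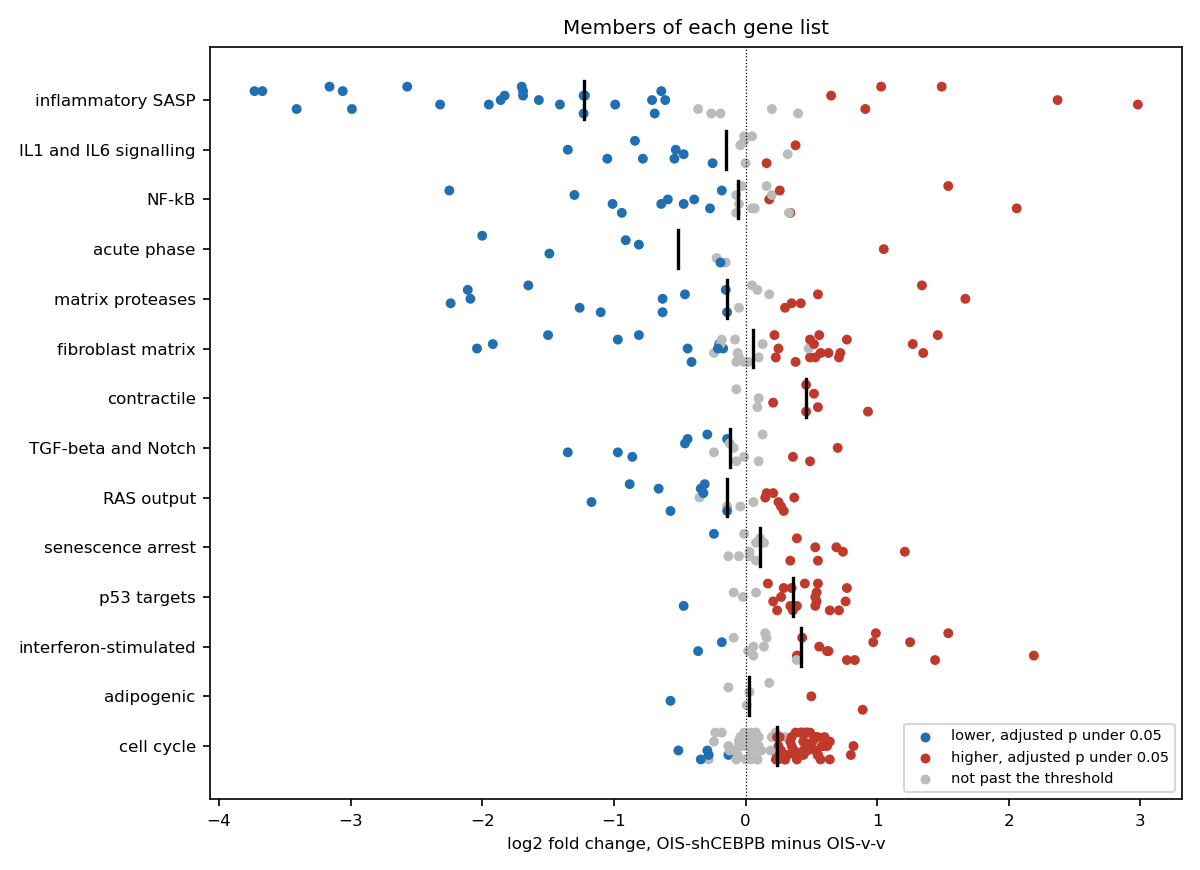
Log2 fold change of OIS-shCEBPB minus OIS-v-v for the tested genes of each list; each point is a gene, blue for lower and red for higher at an edgeR adjusted p under 0.05, grey for not past it, and the black bar is the list median. The median is -1.23 for the inflammatory SASP, 0.46 for contractile, 0.42 for interferon-stimulated and 0.36 for p53 target genes.

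Of 16 ERK targets, which report RAS signalling, 7 fell and 6 rose (6 and 2 without the block). Over all genes tested 15.0% fell and 16.9% rose. The immediate early gene *EGR1* fell by 1.17, *IER3* by 0.88 and the ERK phosphatase *DUSP6* by 0.66, each without overlap (edgeR adjusted p = 3.39e-08, 1.27e-07 and 1.85e-06). *DUSP4*, another phosphatase, rose by 0.37, *EPHA2* by 0.29 and the AP-1 subunit *FOSL1* by 0.27 (edgeR adjusted p = 0.00536, 0.000414 and 0.0136). Without the block *DUSP4* was at an adjusted p of 0.56 and *FOSL1* at 0.0583, and *FOSL1* at 0.0551 to 0.0675 without replicate 1, 2 or 3.

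Of 17 genes of senescence arrest 7 rose and 1 fell (4 and 0 without the block), beside 16.9% and 15.0% of all genes tested. From Grow-v-v to OIS-v-v 4 of the 17 rose and 9 fell, so a rise in this list is not by itself a change towards arrest. *CDKN1A* (p21) stood at 2025, 2002, 1954, 1152 and 1227 CPM in OIS-v-v and at 2220, 2091, 2138, 1990 and 1859 CPM in OIS-shCEBPB. The groups overlapped, and the rise of 0.34 (edgeR adjusted p = 0.0153, 0.254 without the block) was 0.10 in replicates 1 to 3 and 0.68 in replicates 4 and 5. *CDKN2A* (p16 and ARF) rose by 0.53 (edgeR adjusted p = 0.00282, 0.0836 without the block), and *CDKN2B* had 0.14 and the nuclear lamin *LMNB1* 0.08, neither of which passed. *FUCA1*, a lysosomal fucosidase, rose by 1.21 (edgeR adjusted p = 2.02e-05).

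Of 23 p53 targets 19 rose and 1 fell (median 0.36). *BBC3* (PUMA) rose by 0.77, *FDXR* by 0.76 and *BTG2* by 0.71 (edgeR adjusted p = 6.21e-06, 2.8e-06 and 2.74e-05, the last 0.0608 without the block). *GDF15*, a stress cytokine, fell by 0.47 (edgeR adjusted p = 0.00613, 0.0762 without the block), with -0.75 and -0.04 in the sets.

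Of 54 G2/M genes 43 rose and 0 fell, with a median of 0.42, and without the block 6 rose, beside 1218 of all 13396 genes. Replicates 1 to 3 alone gave 48 rises (median 0.52) and replicates 4 and 5 alone 21 (median 0.20), and for 17 of the 54 the effect was lower in replicates 4 and 5 by the edgeR test of the difference. Of 43 S phase genes 5 rose and 5 fell (1 and 1 without the block), beside 16.9% and 15.0% of all genes tested. *CCNB2*, a mitotic cyclin, stood at 9.31, 7.86, 9.31, 15 and 14.7 CPM in OIS-v-v and at 15.7, 14.1, 17.3, 20.7 and 18.6 CPM in OIS-shCEBPB. Replicates 4 and 5 ran higher in both groups, so that the pooled ranges overlapped. The rise was 0.64 (SE 0.09, edgeR adjusted p = 0.000259), to levels below every Grow-v-v library (mean 68.5 CPM). The mitotic kinase *NEK2* rose by 0.80 (edgeR adjusted p = 8.92e-05, 0.0614 without the block), also below Grow-v-v (mean 33.6 CPM). *MCM6*, of the replicative helicase, fell by 0.29 and cyclin E2 (*CCNE2*) by 0.51 (edgeR adjusted p = 0.00693 and 0.0103, the latter 0.0683 without the block).

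Of 24 interferon-stimulated genes 13 rose and 2 fell. *IFIT1*, which binds foreign RNA, went from 1.13, 0.945, 1.11, 2.43 and 1.86 CPM to 3.11, 4.45, 4.01, 3.81 and 4.94 CPM (log2 fold change 1.44, SE 0.21, edgeR adjusted p = 0.000203). *OAS2*, a sensor of double-stranded RNA, rose by 1.54 (edgeR adjusted p = 0.000138), and *RSAD2* (viperin) by 2.19 (edgeR adjusted p = 0.000951) with 6 counts at most in any OIS-v-v library. The transcription factor *IRF1* fell by 0.18 (edgeR adjusted p = 0.0113, 0.0597 without the block). Of 7 adipogenic genes, a programme in which C/EBPβ acts early, 2 rose and 1 fell, beside 16.9% and 15.0% of all genes tested. *PPARG* rose by 0.89 and *KLF5* by 0.50, and the fatty acid transporter *CD36* fell by 0.57 (edgeR adjusted p = 0.00133, 0.00141 and 0.0145, the last 0.181 without the block and 0.0519 and 0.0789 without replicate 2 or 3).

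Of the 10 genes that fell most among all genes at 1 CPM or more without overlap, *IL24*, *CCL20* and *CSF3* are given above. *IGFBP1*, which binds insulin-like growth factors, went from 16.4, 14.5, 15.2, 22.8 and 23 CPM to 0.583, 0.597, 0.261, 0.668 and 0.738 CPM (log2 fold change -5.02, SE 0.14, edgeR adjusted p = 1.75e-10). *SERPINB4*, a serpin of squamous epithelia, went from 97, 90.8, 93.5, 27 and 29.4 CPM to 3.3, 2.98, 2.75, 0.954 and 0.794 CPM (log2 fold change -4.97, SE 0.07, edgeR adjusted p = 1.22e-12). Its near copy *SERPINB3*, with which reads may be confused, had 85 counts at most in an OIS-v-v library and 4 in a knock-down library. *HSD11B1*, which converts inactive cortisone to cortisol, was at 1.57 to 2.4 CPM in OIS-v-v and had 4 counts at most in a knock-down library. The elastase inhibitor *PI3* fell by 4.14, *MEDAG* by 3.83 and *FER1L6* by 3.31 (edgeR adjusted p = 1.32e-10, 1.4e-09 and 7.12e-09).

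Of the 10 that rose most, *CST1*, a secreted inhibitor of cysteine proteases, went from 149, 138, 150, 102 and 106 CPM to 911, 819, 931, 966 and 940 CPM (log2 fold change 2.84, SE 0.10, edgeR adjusted p = 1.27e-09). Grow-v-v held 3.07 CPM on average, below both groups. Its near copy *CST2* rose by 3.74 (edgeR adjusted p = 1e-06). The Wnt modulator *SFRP2* had 4 counts at most in an OIS-v-v library and 2.2 to 3.23 CPM in OIS-shCEBPB. *SLC7A14* rose by 4.19, *ADAMTSL1* by 3.55, the glutamate receptor gene *GRIA1* by 3.42 and the anion transporter gene *SLCO2B1* by 2.97 (edgeR adjusted p 2.64e-09 to 2.61e-07). *APCDD1*, a Wnt inhibitor, and *ELOVL2*, which elongates polyunsaturated fatty acids, rose by 2.62 and 2.61 (edgeR adjusted p = 1.95e-07 and 2.85e-07), each to a range that overlapped Grow-v-v.

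The knock-down was also made in cells that carried shp53. OIS-shp53 and OIS-shCEBPB-shp53 hold no library of the first comparison. Their fit, however, took in all 20 OIS libraries, those of OIS-v-v and OIS-shCEBPB among them. The estimate of the spread and the replicate block were thus shared, and counts of genes passing are not from a separate fit of equal size. *CEBPB* was at 303 to 338 CPM in OIS-shp53 and 28.4 to 38.9 CPM in OIS-shCEBPB-shp53, a fall of 3.33 on the log2 scale (edgeR adjusted p = 2.37e-19). Of the inflammatory SASP genes 26 of 36 fell (17.1% of all genes tested did) and 6 rose (19.6% of all). *IL1B* fell by 3.19, *IL8* by 1.95, *CSF3* by 3.29, *IL6* by 0.75 and *MMP1* by 1.26, and *CCL2* and *PTX3* rose by 1.80 and 2.21 (edgeR adjusted p 2.9e-21 to 9.01e-11). Of 54 G2/M genes 49 rose, of 23 p53 targets 19, and of 26 interferon-stimulated genes 20. Across 13396 genes, which are not independent replicates, the effects without and with shp53 had a Pearson correlation of 0.87.

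The effect of shCEBPB differed between cells without and with shp53 for 104 of 13873 genes (0.750%), lower with shp53 in 72 and higher in 32. Without the block 6 genes passed, and 29, 34 or 42 did without replicate 1, 2 or 3. Of 368 listed genes 15 passed. *CCL3* had -4.29 with shp53 against -1.69 without (difference -2.60, SE 0.26, edgeR adjusted p = 3.15e-05). *MMP3* had -2.77 against -2.24, *LIF* -2.47 against -1.70, *IL24* -4.37 against -3.73 and *IL11* -1.69 against -1.22 (edgeR adjusted p of the differences 3.97e-05, 3.97e-05, 0.0157 and 0.00131). *CSF1* rose less, by 0.89 against 1.49 (edgeR adjusted p of the difference 0.00868). *TRIM22*, an interferon-induced ubiquitin ligase, was at 2.45 to 4.39 CPM in OIS-shp53 and 11.9 to 13.5 CPM with both hairpins, and rose by 1.95 against 1.06 without shp53 (edgeR adjusted p of the difference 0.000426). *GASK1B* rose by 1.44 without shp53 and had -0.10 with it (difference -1.53, edgeR adjusted p = 0.00916, but 0.0531, 0.0582 and 0.0834 without replicate 2, 4 or 5).

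**Figure D5:**
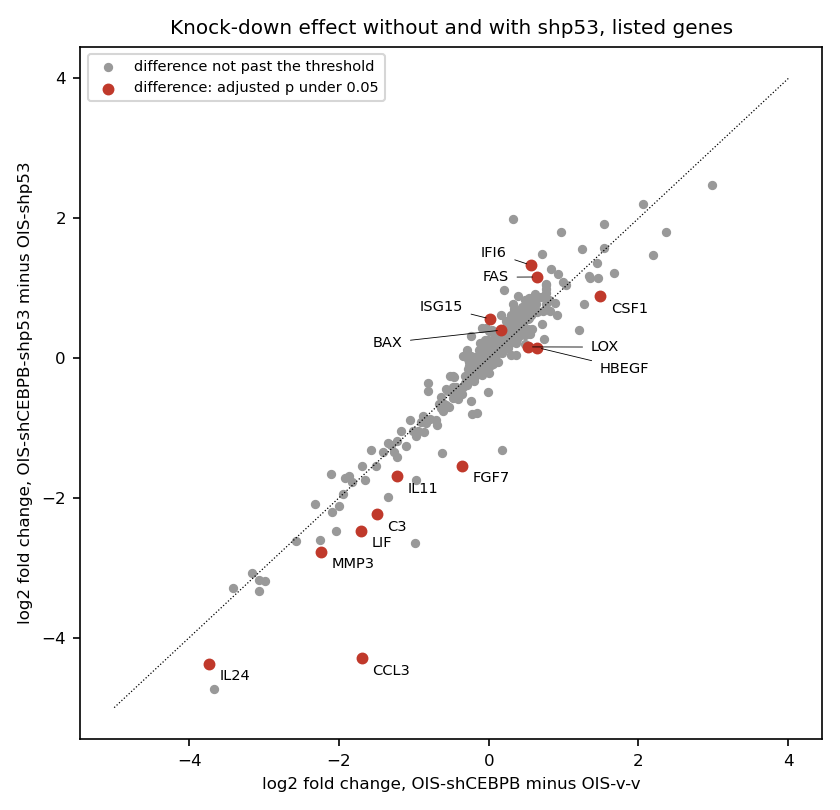
Log2 fold change of shCEBPB without shp53 (x axis) and with shp53 (y axis) for the listed genes tested in both; the dotted line marks equal effects, and red points are genes whose difference passed at an edgeR adjusted p under 0.05. *CCL3*, *MMP3*, *LIF* and *IL24* lie below the line, and *IFI6* and *FAS* above it.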

How the data were processed

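The authors aligned reads to hg19 with STAR, counted them over GENCODE19 genes with featureCounts (Subread) and deposited raw counts per gene. From the 25 libraries of that table (14544053 to 24890797 counts each) the comparisons OIS-shCEBPB against OIS-v-v, OIS-v-v against Grow-v-v and the effect of shCEBPB with and without shp53 were computed. Symbols were found for 42700 of 44503 gene identifiers (95.9%), and 423 of 424 listed genes matched. R 4.3.3, edgeR 4.0.16 (filterByExpr with a minimum count of 10, TMM factors, quasi-likelihood test, replicate number as a block) and Benjamini-Hochberg adjustment were used, with DESeq2 1.42.0 as an alternative; tables and figures used Python 3.11.15, pandas 2.3.3, scipy 1.17.1 and matplotlib 3.10.9. The code was tested on simulated data. CPM used TMM factors over the 25 libraries.

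The block was kept because libraries of the same number deviated together from their group means (correlations 0.49 to 0.63 over 13396 genes). Libraries of another number in the same set did so too (0.36 to 0.62). Those of different sets gave -0.57 to -0.45. As deviations from a group mean cancel out, these negative values follow in part from the positive ones and add no separate evidence. Within a set the same number gave -0.07 to 0.24, so the block mainly removes the sets. Labels call the samples biological replicates without naming separate cultures, so p-values measure the spread between these samples.

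Genes were named by rule: the C/EBP family, examples of SASP and matrix genes, and up to 3 rises and 3 falls in each list. Added were the 10 largest rises and falls without overlap, among genes with a mean of at least 1 CPM over OIS-shCEBPB and OIS-v-v libraries. The last were the 3 largest differences each way with shp53. Other list members were named after their values were seen. The members and lists were chosen with earlier results of these data known. The test of a difference between sets was added after seeing the data. Promoters were matched by symbol to RefSeq (10325 tested genes had one). Mitochondrial genes were not analysed here, and some named genes are not reported here. Alternatives were the block, DESeq2, other scaling and filters, stricter thresholds, the sets alone and leaving out each replicate.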

Additional observations from a re-analysis of the deposited data

Results flagged for a closer look

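In 8 of 216 groups of 5 libraries, each for 1 named gene, a single library stood apart from the others by Dixon's test. For 5 draws from 1 normal distribution, chance does this in about 1 group in 20. The libraries here form separate sets, so that rate may not hold for them. *IL1RAP* stood at 50.1 CPM in OIS-v-v replicate 4, with 29.8 to 35.5 CPM in the other replicates. *PTX3* stood at 71.5 CPM in OIS-v-v replicate 5, with 83.6 to 88.5 CPM in the other replicates. *NFKBIE* stood at 18.7 CPM in OIS-v-v replicate 4, with 23.4 to 24.9 CPM in the other replicates. *POSTN* stood at 262 CPM in OIS-v-v replicate 4, with 221 to 229 CPM in the other replicates. *FOSL1* stood at 183 CPM in OIS-shCEBPB replicate 5, with 194 to 197 CPM in the other replicates. *OAS2* stood at 4.09 CPM in OIS-shCEBPB replicate 5, with 1.83 to 2.02 CPM in the other replicates. *SFRP2* stood at 0.216 CPM in OIS-v-v replicate 4, with 0 to 0.0601 CPM in the other replicates. *HSD11B1* stood at 0.184 CPM in OIS-shCEBPB replicate 2, with 0 to 0.0477 CPM in the other replicates. *SFRP2* and *HSD11B1* had few counts in these groups.

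For 12 of the 108 genes named by rule and checked, the effect of shCEBPB differed between cells without and with shp53. The test was edgeR's test of the difference (adjusted p under 0.05), which 0.750% of all genes tested passed. *TRIM22*, *IFI6*, *ENSG00000260108*, *CCL3*, *GASK1B* and *BEAN1* were named as the 3 largest differences each way in this same test, so their passing was set by the choice. *IL24*, *CSF1*, *C3*, *SLC7A14* and *CST1* were named for the size of their change without shp53. That change is part of the difference tested, so the choice bears on their result too. *LIF* and *IL11*, named after their values were seen, are not in this count. On the log2 scale, the differences below 0 were *MMP3* -0.53 (-2.24 without and -2.77 with shp53), *IL24* -0.64 (-3.73 without and -4.37 with shp53), *CSF1* -0.60 (1.49 without and 0.89 with shp53), *C3* -0.75 (-1.49 without and -2.23 with shp53), *SLC7A14* -1.34 (4.19 without and 2.82 with shp53), *CST1* -0.59 (2.84 without and 2.27 with shp53), *CCL3* -2.60 (-1.69 without and -4.29 with shp53), *GASK1B* -1.53 (1.44 without and -0.10 with shp53) and *BEAN1* -1.43 (0.45 without and -0.99 with shp53). The differences above 0 were *TRIM22* 0.89 (1.06 without and 1.95 with shp53), *IFI6* 0.80 (0.56 without and 1.33 with shp53) and *ENSG00000260108* 0.72 (-0.03 without and 0.69 with shp53).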

How the results depend on the processing

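Genes passing with shCEBPB went from 4270 to 2290 without the replicate block, 2773 at an adjusted p under 0.01, and 1189 and 517 at fold changes of at least 1.5 and 2. They stayed within 1.5 times of the main count with DESeq2, upper-quartile factors, library sizes alone, either filter, the set as the term, each set alone, all 5 groups in 1 fit, and leaving out each replicate (3317 to 4565). For the difference with shp53, the 104 genes became 6 without the replicate block, 379 without the filter on low counts, 45 at an adjusted p under 0.01, 31 and 11 at fold changes of at least 1.5 and 2, and 29 to 112 when each replicate was left out. From Grow-v-v to OIS-v-v, 6626 genes became 3707 and 1991 at fold changes of at least 1.5 and 2. Of 108 named genes tested 57 kept direction and side of the threshold in every alternative. *ENSG00000260108*, at -0.03 and not past the threshold, had 0.04 with library sizes alone and -0.07 to 0.02 when each replicate was left out (0.02 without replicate 1); the cause was not tested. Its difference with shp53 was lost when any replicate was left out (adjusted p 0.0882 to 0.33), and that of *IFI6* without replicate 1, 2 or 3 (0.26, 0.199 and 0.216). For *BEAN1* the difference was lost without replicate 1 (0.072), and the effect without shp53 without replicate 1, 2 or 5 (0.102, 0.12 and 0.0679). Genes with few counts, such as *SERPINB3*, *HSD11B1*, *SFRP2* and *PTGES*, are limited by depth, and no fold is given for them.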
